A study of Oryza sativa with 8 samples.

Results

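The Saltol interval loci are the rice loci of chromosome 1 whose identifiers on the array run from LOC_Os01g18010 to LOC_Os01g22500. They were taken by locus number alone and came to 350 of the 52795 loci on the array. The other 5931 loci of chromosome 1 and the loci of the whole array served as the comparison.

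Saltol is a quantitative trait locus of chromosome 1 for salt tolerance at the seedling stage. It was mapped with Pokkali, a salt-tolerant indica line, as the donor of the tolerant allele, and it is known for its link to the balance of sodium and potassium ions in the shoot. Breeders have moved the Pokkali segment into many rice lines, so which transcripts of the segment differ between Pokkali and a japonica line, and which respond to salt, is a question that the interval poses by itself. The array names loci by identifier only, and a rice gene table matched 0 of these identifiers. No gene name, product or role is therefore given for any locus below, and locus numbers give the order along the chromosome, not a distance.

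The plants were 14-day-old seedlings, taken whole, of 2 lines raised in a greenhouse under natural light: Nipponbare, a japonica, and Pokkali, an indica. They were collected either unsalted (0 h) or following 8 h in NaCl at 250 mM. With 2 biological replicates for each of the 4 combinations of line and time, and 1 one-colour array for each replicate, there were 8 arrays. No group was kept for 8 h without salt, so salt and 8 h of elapsed time cannot be told apart in any change from 0 h to 8 h. In whole seedlings, fewer cells of a type and less RNA per cell cannot be told apart either. The 8 arrays shared 1 slide, with each line in its own row and each time in its own columns, so array position and group cannot be told apart.

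Levels below are log2 intensities on a scale where the 75th percentile of each array is 0, so a locus at -3 lay 3 log2 units below that percentile. A locus is called bright on an array where its probe was well above background by the scanner's flag, and dark where it was not. It is called dark in a group where both arrays of the group were dark, and bright in a group where at least 1 was bright. Where a group was dark the fold is given as "at least". Its arrays were then raised to a floor, the lowest value of any bright probe on the same array. A dark locus can lie above that floor, so such a fold is no strict lower limit. The p-value beside it tests the measured difference. Between 276 and 295 of the 350 interval loci were bright on a given array. In all, 256 loci (73.1%) were bright on all 8 arrays, 38 (10.9%) were dark on all 8 and 56 lay between, against 73.3% bright and 9.73% dark on all 8 over the whole array. Tests covered the 297 interval loci (84.9%) that were bright on both arrays of at least 1 group. Of all loci, 86% were tested, and of the rest of chromosome 1, 89.2%.

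Replicates of interval loci differed more at 0 h than at 8 h. Their SD within a group, over loci, at 0 h was 0.42 log2 units in both lines, and at 8 h it was 0.28 in both. The replicate spread over all loci followed the same order, with 0.44 and 0.45 at 0 h and 0.31 and 0.32 at 8 h.

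Between the lines before salt, 21 of the 297 tested interval loci were higher in Pokkali than in Nipponbare and 25 were lower, at a Benjamini-Hochberg adjusted p from limma under 0.05 over all loci tested. Over the whole array 6.71% of loci were higher and 10.1% lower, and in the interval 7.07% and 8.42%. After 8 h of salt, 32 interval loci were higher in Pokkali and 30 lower. The shares over the whole array were 10.5% higher and 11.4% lower, and those in the interval 10.8% and 10.1%. Shares this near the background are no result about the interval. The probes were designed on a japonica genome, the subspecies of Nipponbare, so for every line difference a difference in RNA level and a difference in how Pokkali RNA matches the probe cannot be told apart.

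**Figure D1:**
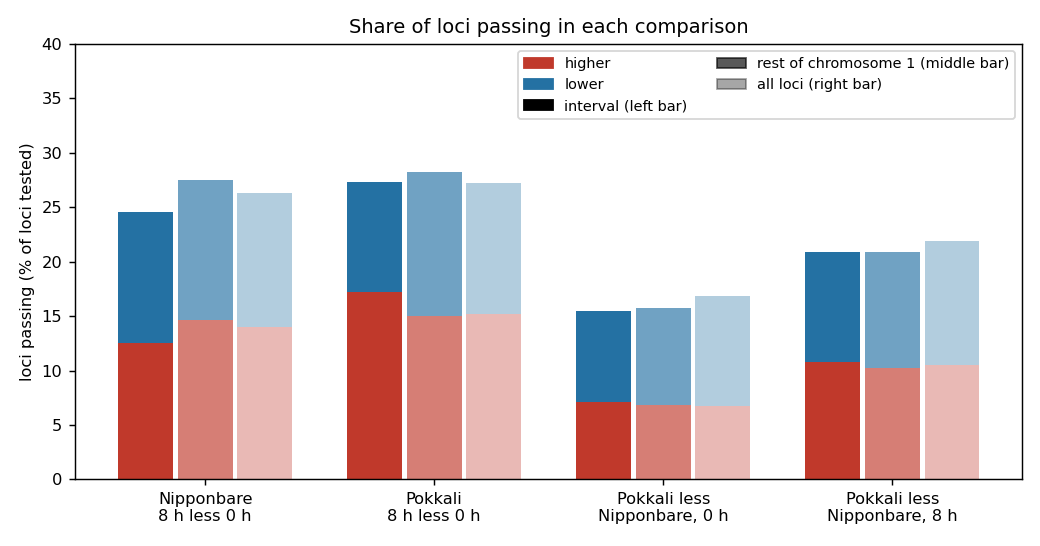
Share of tested loci passing in each of 4 comparisons, in % of loci tested, for the interval (left bar, 297 loci), the rest of chromosome 1 (middle bar, 5291 loci) and all loci (right bar, 45412 loci); red is higher and blue lower, stacked. In each comparison the 3 bars reach similar heights, such as 15.5%, 15.7% and 16.8% between the lines at 0 h.

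Of the 46 line differences called at 0 h, 37 had at least 1 bright array in each line. The other 9 had one line dark, and only a bound at the floor of the array is given for their size. With those at their bound, the median size was 3.19-fold in the interval and 2.60-fold over the called loci of the array, and 16 of the 46 (34.8%) exceeded 4-fold, against 29.5% over the array. Of those 16, 6 were higher in Pokkali and 10 lower, where the array had 606 higher and 1641 lower. Of the 62 differences called after 8 h of salt, 55 had at least 1 bright array in each line, 6 had one line dark and 1 had both dark. On the same footing, with the last left out of the sizes, the median size at 8 h was 2.53-fold, against 2.41-fold over the array, and 16 (25.8%) exceeded 4-fold, against 26.3%. Of these, 4 were higher and 12 lower in Pokkali, against 899 and 1724 over the array. These shares are a description and were not tested against each other. The lines did not overlap at any called locus, but nor did they at 54.2% of the 297 tested loci at 0 h and 68.4% at 8 h, where the shares over all loci were 54.9% and 69%.

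The counts depend on single arrays. At 0 h, leaving out Nipponbare replicate 2 left 11 higher loci and leaving out Pokkali replicate 2 left 13. At 8 h, the number of higher loci dropped to 11 without either Nipponbare 8 h array and to 13 without either Pokkali 8 h array. The 8 h count of lower loci was 18 without Nipponbare replicate 1 and 19 without Pokkali replicate 1. The share of all loci called, in either direction, moved with these: from 16.8% to 11.8% and 12.2% at 0 h, and from 22% to between 11.1% and 12.6% at 8 h. The split also rests on the scaling: with no scaling between arrays, 14 interval loci were higher and 37 lower at 0 h, and 22 higher and 32 lower at 8 h. That setting moved the median difference of all loci from 0.08 to -0.14 at 0 h and from 0.09 to -0.06 at 8 h, and the lower share of all called loci from 60% to 76% and from 52.1% to 65%.

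Differences that passed at both times in the same direction were found at 31 of the 297 loci (10.4%), against 12.2% of all loci tested. Of the 31, 15 were higher in Pokkali and 16 lower. They made up 67.4% of the loci called at 0 h and 50% of those called at 8 h, where the corresponding shares over the array were 72.8% and 55.7%. Each of the 4 groups had at least 1 bright array at 14 of the 15 higher loci, which ranged from 0.73 to 3.86 log2 units at 0 h and from 0.72 to 4.09 at 8 h. The same held for 8 of the 16 lower loci, which ranged from -0.68 to -2.78 at 0 h and from -0.97 to -2.91 at 8 h; at the other 8 a group was dark. The groups compared at 0 h and at 8 h share no array. Both tests use 1 spread per locus from all 8 arrays, so the calls are not independent.

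**Figure D2:**
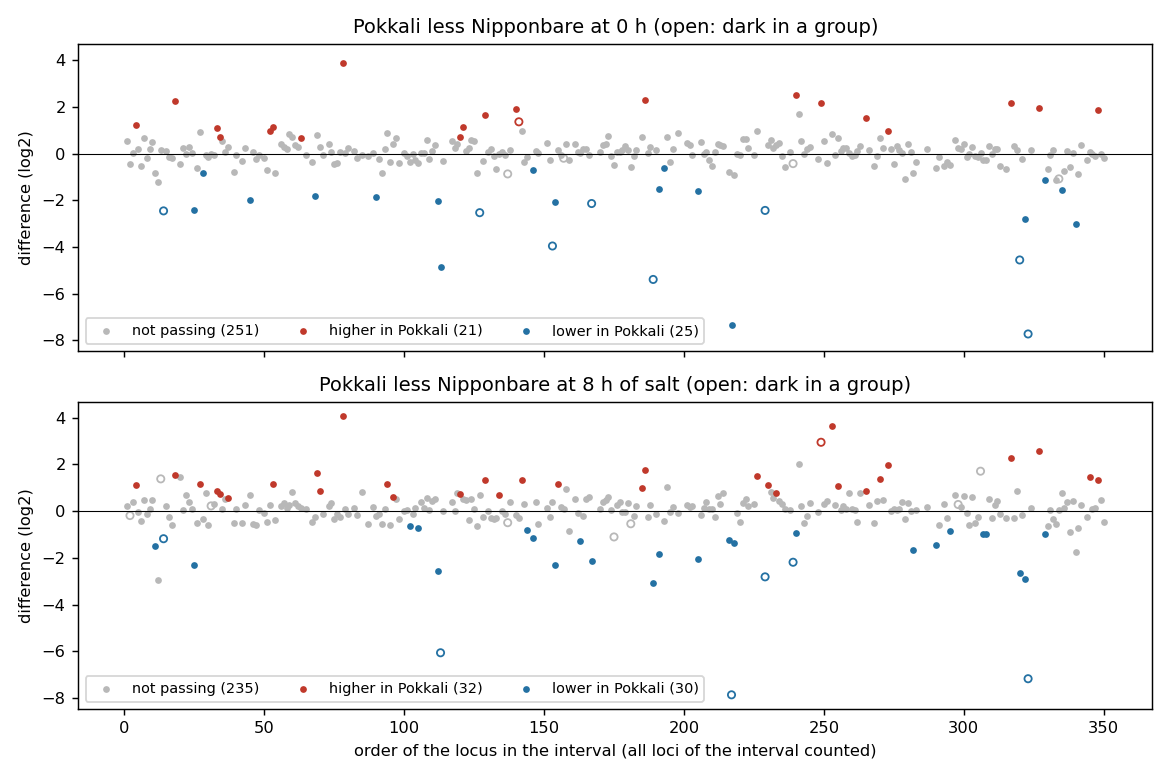
Difference between the lines (Pokkali less Nipponbare, log2) of each tested interval locus, in the order of the loci along the chromosome, at 0 h (top) and after 8 h of salt (bottom); each point is a locus, red where it passed as higher in Pokkali (21 and 32) and blue where it passed as lower (25 and 30). Open points are loci dark on both arrays of one or both of the groups compared, drawn at their measured difference, whose size is then not known. The loci that passed are spread along the whole interval, and among loci bright in both groups the highest is LOC_Os01g18860, at 3.86 and 4.09.

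The highest locus in Pokkali relative to Nipponbare was LOC_Os01g18860 at both times. In Nipponbare its level was -2.72 and -3.15 at 0 h and -2.98 and -2.87 at 8 h. In Pokkali it was 0.98 and 0.87 at 0 h and 1.24 and 1.098 at 8 h. All 4 Pokkali arrays thus lay above all 4 Nipponbare arrays, by a gap wider than the replicate spread, and neither line changed with salt past the threshold. The difference was 3.86 ± 0.19 log2 units (limma SE pooled over the 4 groups, n = 2 arrays a group, 14.5-fold, limma adjusted p = 5.85e-05) at 0 h. At 8 h it was 4.09 ± 0.19 (17.1-fold, limma adjusted p = 4.64e-05), and it passed under all 20 alternative settings at both times.

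LOC_Os01g22140 was the other locus higher in Pokkali with the smallest p-values over both times. Its levels in Nipponbare were -2.77 and -2.64 at 0 h and -2.75 and -2.60 at 8 h. Its levels in Pokkali were -0.78 and -0.73 at 0 h and -0.10 and -0.13 at 8 h. Replicates of this locus lay at most 0.14 log2 units apart in any group, and the lines did not overlap. It was 3.86-fold higher in Pokkali at 0 h (1.95 ± 0.14 log2 units, limma adjusted p = 0.000293) and 5.89-fold higher at 8 h (2.56 ± 0.14, limma adjusted p = 9.65e-05).

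A locus that was higher in Pokkali at 8 h without passing at 0 h was LOC_Os01g21290. It stood at -4.71 and -4.57 in Nipponbare at 0 h and at -4.70 and -4.94 at 8 h. In Pokkali it stood at -4.04 and -3.53 at 0 h and at -1.66 and -0.70 at 8 h. The Pokkali 8 h arrays were the highest of the 8, and those of Pokkali at 0 h lay just above the Nipponbare arrays. The line difference at 8 h was 12.5-fold (3.64 ± 0.34 log2 units, limma adjusted p = 0.000775), and that at 0 h was 0.86 ± 0.34 (limma adjusted p = 0.15). From 0 h to 8 h of salt it rose 6.08-fold in Pokkali (limma adjusted p = 0.00423), and its change in Nipponbare was -0.18 ± 0.34 log2 units (limma adjusted p = 0.727). The test of the difference between these changes gave 2.79 ± 0.48 log2 units and did not pass (limma adjusted p = 0.101), so a salt response that differs between the lines is not shown for it.

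The lower loci include several that were near or under background in Pokkali. LOC_Os01g20894 was far brighter in Nipponbare. In Nipponbare it was at 1.34 and 0.56 at 0 h and at 0.96 and 0.65 at 8 h, above the 75th percentile of its arrays. In Pokkali it was at -6.92 and -5.89 at 0 h and at -7.84 and -6.28 at 8 h, and only 1 of these 4 arrays, a 0 h array, was bright. The measured difference at 0 h was -7.35 ± 0.59 log2 units (limma adjusted p = 0.000443), with the dark array at its own value. With that array raised to the lowest value of a bright probe on it, LOC_Os01g20894 was 109-fold lower in Pokkali at 0 h. At 8 h it was at least 105-fold lower (limma adjusted p = 0.000314).

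LOC_Os01g19270 showed the same kind of gap at a lower level. Its Nipponbare levels were -0.80 and -0.66 at 0 h and -1.10 and -1.21 at 8 h. Its Pokkali levels were -5.59 and -5.61 at 0 h and -8.09 and -6.34 at 8 h, with 1 bright array, at 0 h. The locus was 29.3-fold lower in Pokkali at 0 h (-4.87 ± 0.51, limma adjusted p = 0.00136) and at least 27.1-fold lower at 8 h (limma adjusted p = 0.000512).

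LOC_Os01g20130 was dark in Pokkali at 0 h and bright there at 8 h. Nipponbare had -1.60 and -1.26 at 0 h and -1.98 and -1.90 at 8 h. Pokkali had -7.30 and -6.34 at 0 h and -5.02 and -4.99 at 8 h. The lines stayed apart at both times, with the locus at least 21.9-fold lower in Pokkali at 0 h (limma adjusted p = 0.000124) and 8.37-fold lower at 8 h (-3.07 ± 0.31, limma adjusted p = 0.00118). Its rise with salt in Pokkali, at least 1.84-fold (limma adjusted p = 0.00974), was lost without Pokkali 8 h replicate 2 (limma adjusted p = 0.0592) and with normexp background correction (limma adjusted p = 0.124). The change in Nipponbare was -0.51 log2 units (limma adjusted p = 0.278). The measured difference between these changes, 2.32 log2 units, did not pass (limma adjusted p = 0.131), nor under any of 18 alternatives. A salt response that differs between the lines is thus not shown for it.

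LOC_Os01g22080 was lower in Pokkali while bright on all 8 arrays. Its levels were 0.14 and 0.10 in Nipponbare at 0 h and 1.25 and 1.16 at 8 h, against -2.72 and -2.60 in Pokkali at 0 h and -1.86 and -1.56 at 8 h. Both lines thus rose with salt, and Pokkali stayed below Nipponbare throughout. The line difference was 6.89-fold at 0 h (-2.78 ± 0.16, limma adjusted p = 0.000115) and 7.51-fold at 8 h (-2.91 ± 0.16, limma adjusted p = 9.55e-05). The salt change was 1.08 ± 0.16 in Nipponbare (limma adjusted p = 0.00597) and 0.95 ± 0.16 in Pokkali (limma adjusted p = 0.0087; 0.0525 without Pokkali 8 h replicate 2).

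The scanner flag was also read on its own. Of the 350 interval loci, 0 were dark on all 4 Nipponbare arrays and bright on all 4 Pokkali arrays, where 0.405% of all loci were. The reverse, dark in Pokkali and bright in Nipponbare, held for 2 loci of 350, where 1.2% of all loci did so. Both counts are small enough that they say nothing about the interval against the array.

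These 2 loci were LOC_Os01g22090 and LOC_Os01g21010. LOC_Os01g22090 was at 0.01 and -0.68 in Nipponbare at 0 h and at -0.40 and -0.42 at 8 h, and at -7.92 and -8.20 in Pokkali at 0 h and -8.20 and -6.96 at 8 h. It was at least 46.8-fold lower in Pokkali at 0 h (limma adjusted p = 9.81e-05) and at least 45.4-fold lower at 8 h (limma adjusted p = 0.000125). It was thus a bright locus in one line and not well above background in the other.

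LOC_Os01g21010 was dim even in Nipponbare, at -4.44 and -4.63 at 0 h and at -3.44 and -3.90 at 8 h, against -6.58 and -7.36 in Pokkali at 0 h and -6.03 and -6.94 at 8 h. It was at least 2.54-fold lower in Pokkali at 0 h (limma adjusted p = 0.00781) and at least 4.73-fold lower at 8 h (limma adjusted p = 0.00403). The call at 0 h ended with normexp background correction (-0.29, limma adjusted p = 0.11), and also when both replicate 2 arrays of 0 h were dropped (limma adjusted p = 0.0805).

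The alternative with normexp background correction started from another signal, the median signal, and added 50 intensity units to every spot. With it the 0 h difference was -3.47 at LOC_Os01g22090, -4.57 at LOC_Os01g20894, -2.58 at LOC_Os01g19270 and -2.42 at LOC_Os01g20130. Without it the measured differences were -7.72, -7.35, -4.87 and -5.39 log2 units, in the same order. The folds were thus far smaller with this alternative, while the direction and the call at 0 h held. The "at least" folds of LOC_Os01g22090 and LOC_Os01g20130 at 0 h rest on the floor of the deposited processed signal. They are not lower limits under this alternative, and a dark locus can lie above that floor. On Pokkali 0 h replicate 1, for example, LOC_Os01g19270 was dark at -5.59, above the floor of -5.75. Which changes of the normexp alternative moved the sizes was not tested. At 8 h the smallest difference under any alternative was -3.22 at LOC_Os01g22090, -4.33 at LOC_Os01g20894, -2.43 at LOC_Os01g19270 and -0.71 at LOC_Os01g21010. Each passed at 8 h under all 19 alternatives, but their "at least" folds at 8 h are not lower limits under every alternative.

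**Figure D3:**
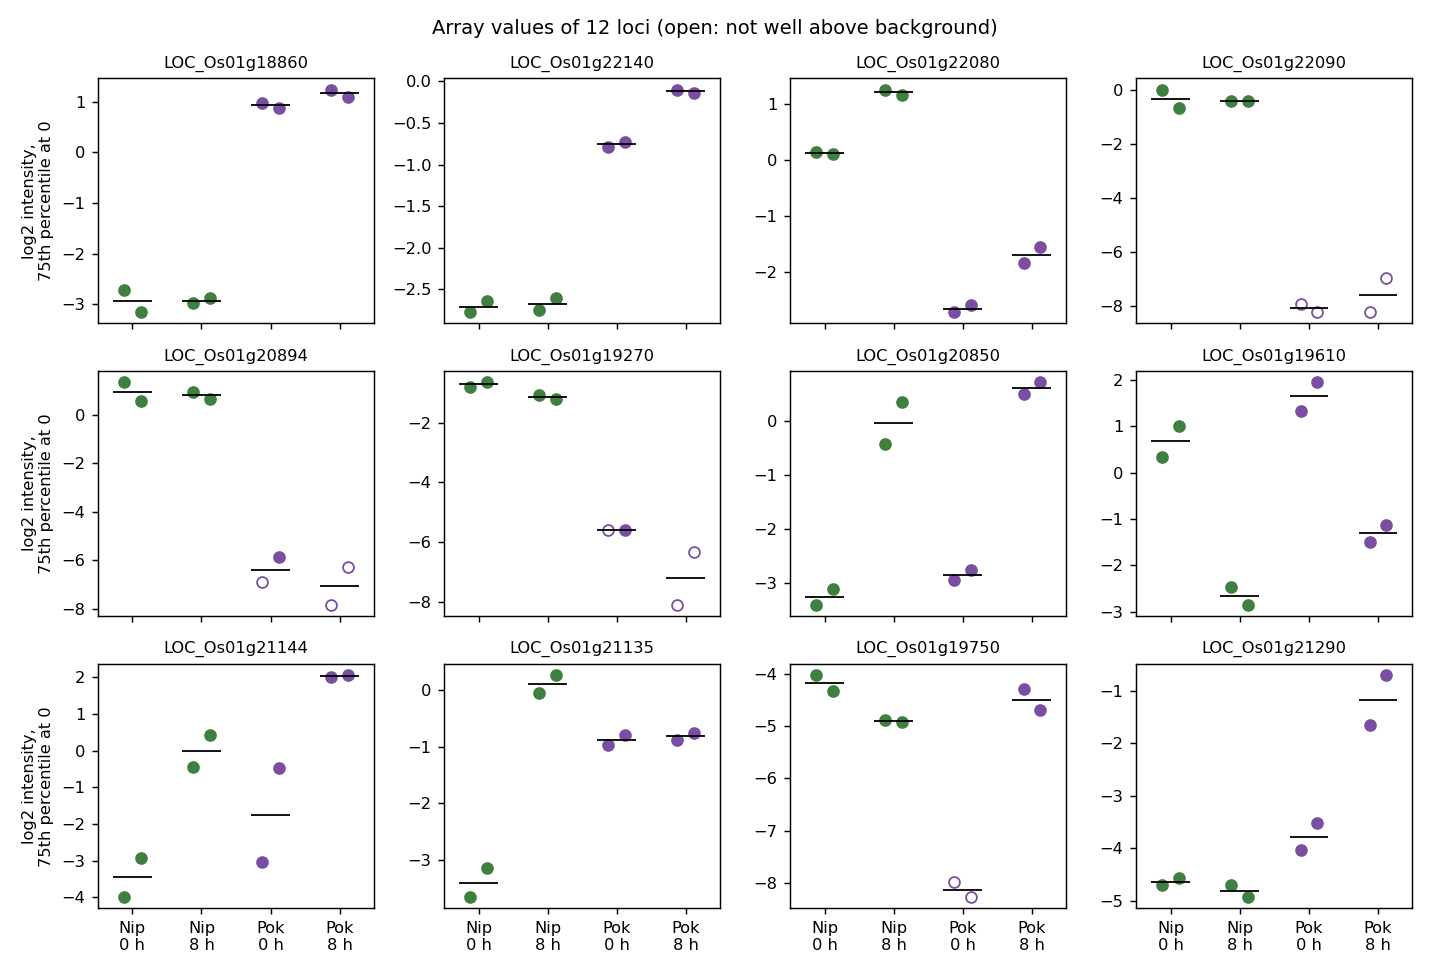
Level of 12 named loci on each of the 8 arrays (log2 intensity with the 75th percentile of each array at 0; each panel has its own axis), with Nipponbare (Nip) in green and Pokkali (Pok) in purple; bars are group means of 2 arrays and open points are arrays where the locus was not well above background. The top row and the first 2 panels of the middle row show differences between the lines at both times, LOC_Os01g20850 and LOC_Os01g19610 show salt changes in both lines, and LOC_Os01g21135 and LOC_Os01g19750 show changes that differ between the lines.

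For the change from 0 h to 8 h of salt in Nipponbare, 37 of the 297 tested loci rose and 36 fell. Over all loci 14% rose and 12.3% fell, and in the interval 12.5% and 12.1%. In Pokkali 51 interval loci rose and 30 fell. Over all loci 15.2% rose and 12% fell there, and in the interval 17.2% and 10.1%. The shares again lay near the background. The median change over the 297 loci was 0.03 log2 units in Nipponbare and 0.10 in Pokkali, against 0.05 and 0.08 over all loci.

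Of the 73 changes that passed in Nipponbare, 6 had one time dark, and of the 81 in Pokkali, 9 did. With those at their bound, 44 in Nipponbare (60.3%) were at least 2-fold and 18 (24.7%) at least 4-fold, against 63.3% and 19.5% of the called loci of the array. In Pokkali 47 (58%) were at least 2-fold and 17 (21%) at least 4-fold, against 61.9% and 17.7% over the array. Among loci bright at both times, the called changes reached from -3.33 to 3.50 log2 units in Nipponbare and from -2.96 to 3.79 in Pokkali. At 160 of the 297 loci (53.9%, against 51.5% of all loci) none of the 4 comparisons passed, neither for salt in a line nor between the lines at a time.

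As with the lines, single arrays moved the counts. In Nipponbare leaving out 0 h replicate 2 gave 22 rising and 16 falling loci, leaving out 8 h replicate 1 gave 15 and 19, and leaving out 8 h replicate 2 gave 13 and 10. In Pokkali, dropping 8 h replicate 1 gave 30 rising and 17 falling loci and dropping 8 h replicate 2 gave 18 and 8, while 10 fell when 0 h replicate 2 was dropped. The share of all loci called moved alike, from 26.3% to 12.7%, 14.1% and 8.88% in Nipponbare and from 27.2% to 15.4%, 10.5% and 15.1% in Pokkali, in the order given. Where the arrays were left unscaled, 25 rose and 49 fell in Nipponbare and 35 rose and 35 fell in Pokkali. That setting moved the median change of all loci from 0.05 to -0.17 in Nipponbare and from 0.08 to -0.07 in Pokkali, and the falling share of all called loci from 46.7% to 66.8% and from 44% to 57.5%.

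In both lines 42 loci passed in the same direction (14.1%, against 17.3% of all loci), 25 of them upwards and 17 downwards. They made up 57.5% of the loci called in Nipponbare and 51.9% of those called in Pokkali, where the shares over the array were 65.6% and 63.6%. These comparisons share no array. A locus that passed in one line and not in the other is not shown to respond differently, and that difference is tested separately below.

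**Figure D4:**
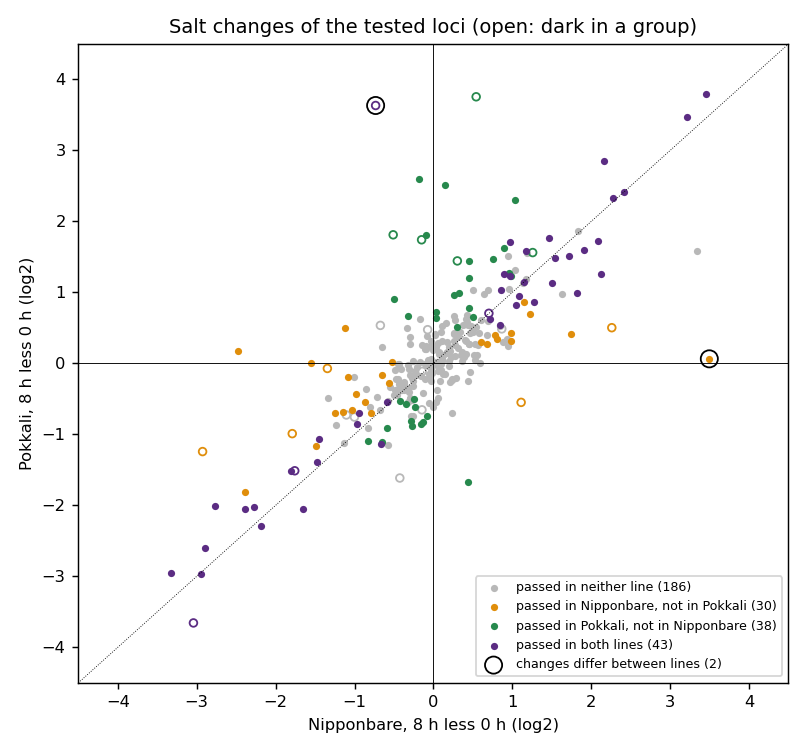
Change from 0 h to 8 h of salt of each tested interval locus in Nipponbare (x axis) and in Pokkali (y axis), in log2 units; each point is a locus, coloured by the line in which it passed, the dotted line marks equal changes and circles mark the 2 loci whose changes differed between the lines. Open points are loci dark in a group, drawn at measured values. The circled loci are LOC_Os01g21135, at 3.50 and 0.06, and LOC_Os01g19750. The Pokkali rise of LOC_Os01g19750 was 2.62-fold with the dark arrays at their floor.

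Among the rises was LOC_Os01g20850. In Nipponbare it went from -3.40 and -3.12 at 0 h to -0.43 and 0.35 at 8 h. In Pokkali it went from -2.95 and -2.77 to 0.50 and 0.72. The 0 h and 8 h arrays did not overlap in either line. The rise was 9.32-fold in Nipponbare (3.22 ± 0.28, limma adjusted p = 0.00165) and 11-fold in Pokkali (3.47 ± 0.28, limma adjusted p = 0.00166), and it passed in both lines under all 20 alternative settings.

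LOC_Os01g21144 reached the highest rise in Pokkali, with poor agreement between the replicates at 0 h. Its Nipponbare levels were -4.00 and -2.91 at 0 h and -0.44 and 0.44 at 8 h. Its Pokkali levels were -3.03 and -0.48 at 0 h and 2.01 and 2.07 at 8 h. The 0 h arrays of Pokkali were 2.54 log2 units apart, the 8 h arrays 0.06, and times did not overlap in either line. The rise was 3.46 ± 0.82 in Nipponbare (11-fold, limma adjusted p = 0.0265) and 3.79 ± 0.82 in Pokkali (13.8-fold, limma adjusted p = 0.0193). The size of the Pokkali rise of LOC_Os01g21144 depended on the 0 h array kept: it was 2.52 log2 units without replicate 1 and 5.06 without replicate 2. The Nipponbare call was lost without any one of the Nipponbare arrays or the Pokkali 8 h arrays (limma adjusted p from 0.0521 to 0.14), and the Pokkali call without either Pokkali 8 h array (0.0779 without replicate 1 and 0.0947 without replicate 2).

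A smaller and more regular rise was that of LOC_Os01g18375, at 0.22 and 0.17 in Nipponbare at 0 h and 1.54 and 1.79 at 8 h, and at 0.40 and 0.53 in Pokkali at 0 h and 2.15 and 2.32 at 8 h. Its replicates lay at most 0.25 log2 units apart in any group. The rise was 2.76-fold in Nipponbare (1.47 ± 0.16, limma adjusted p = 0.00265) and 3.41-fold in Pokkali (1.77 ± 0.16, limma adjusted p = 0.0019).

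Among the falls, LOC_Os01g19610 went from 0.34 and 1.00 to -2.48 and -2.84 in Nipponbare, and from 1.34 and 1.95 to -1.49 and -1.12 in Pokkali. Both lines moved from above the 75th percentile of the array to well under it, with Pokkali measured above Nipponbare at either time. The line difference did not pass at 0 h (0.97, limma adjusted p = 0.094). At 8 h it passed (1.35, limma adjusted p = 0.028), and under 16 of 20 alternatives, but not with any one 8 h array left out. The locus fell 10.1-fold in Nipponbare (-3.33 ± 0.32, limma adjusted p = 0.00199) and 7.72-fold in Pokkali (-2.95 ± 0.32, limma adjusted p = 0.00275). The fall passed under all 20 alternative settings in both.

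LOC_Os01g19990 was at -2.43 and -2.20 in Nipponbare at 0 h and at -5.65 and -5.06 at 8 h, and at -3.11 and -2.50 in Pokkali at 0 h and -6.92 and -6.00 at 8 h, where it was dark. Both lines fell with no overlap, 8.23-fold in Nipponbare (-3.04 ± 0.38, limma adjusted p = 0.00375) and at least 8.62-fold in Pokkali (limma adjusted p = 0.00254). With normexp background correction the changes were -1.41 and -1.14, past the threshold in both lines.

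LOC_Os01g19220 had a wide spread at 0 h, with -1.02 and 0.76 in Nipponbare and -0.09 and 0.99 in Pokkali, and a narrow one at 8 h, with -2.98 and -3.17 and then -2.47 and -2.56. Every 8 h array lay under every 0 h array. It fell 7.68-fold in Nipponbare (-2.94 ± 0.60, limma adjusted p = 0.0161) and 7.8-fold in Pokkali (-2.96 ± 0.60, limma adjusted p = 0.0154). The Nipponbare change of LOC_Os01g19220 was -3.83 without 0 h replicate 1 and -2.05 without 0 h replicate 2. The Nipponbare call was lost without 8 h replicate 1 (limma adjusted p = 0.0635) or replicate 2 (0.0891). The Pokkali call was lost without 0 h replicate 2 (limma adjusted p = 0.0703), 8 h replicate 1 (0.065) or 8 h replicate 2 (0.083).

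LOC_Os01g18320 had the smallest p-values of the falling loci, at levels close to background: -5.22 and -5.36 in Nipponbare and -5.22 and -5.40 in Pokkali at 0 h, then -6.99 and -7.11 and -6.75 and -6.89 at 8 h, where it was dark in both lines. Its measured change was -1.76 log2 units in Nipponbare (limma adjusted p = 0.00165) and -1.51 in Pokkali (limma adjusted p = 0.00234). With the dark arrays raised to their floor the fall was at least 1.46-fold and at least 1.52-fold, sizes that were not tested. With normexp background correction the changes were -0.09 and -0.21 and did not pass (limma adjusted p = 0.557 and 0.179).

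The salt change differed between the lines at 2 of the 297 loci. The difference (Pokkali change less Nipponbare change) was higher at 1 locus and lower at 1, or 0.337% each, where 0.203% and 0.143% of all loci passed. At an unadjusted p under 0.05, 29 interval loci (9.76%) passed this test, against 10.4% of all loci. The 2 loci were the same 2 that passed in opposite directions elsewhere: LOC_Os01g19750 fell with salt in Nipponbare and rose in Pokkali, and LOC_Os01g21135 was higher in Pokkali at 0 h and lower at 8 h. LOC_Os01g19750 was named after its values were seen.

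LOC_Os01g21135 was at -3.65 and -3.13 in Nipponbare at 0 h and at -0.06 and 0.26 at 8 h. In Pokkali it was at -0.97 and -0.79 at 0 h and at -0.87 and -0.77 at 8 h. Nipponbare therefore crossed from under to over the Pokkali level. The change was 3.50 ± 0.22 in Nipponbare (11.3-fold, limma adjusted p = 0.00104) and 0.06 ± 0.22 in Pokkali (limma adjusted p = 0.855). The difference of the changes was -3.43 ± 0.31 (limma adjusted p = 0.0284). Between the lines, Pokkali was 5.7-fold higher at 0 h (limma adjusted p = 0.000688) and 1.9-fold lower at 8 h (-0.92 ± 0.22, limma adjusted p = 0.0303).

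Both the salt change in Nipponbare and the line difference at 0 h passed at LOC_Os01g21135 under all 20 alternative settings. The difference of the changes passed under 11 of 19, with values from -3.69 to -2.75. It was lost without Nipponbare 8 h replicate 1 (limma adjusted p = 0.0832) or replicate 2 (0.0869), on dropping the Pokkali 0 h array of replicate 2 (0.0694), and on dropping either Pokkali 8 h array (0.103 for replicate 1 and 0.146 for replicate 2). With the replicate number as a block within each time, an alternative chosen after seeing the data, it did not pass either (limma adjusted p = 0.076). The 8 h line difference was lost without any one 8 h array (limma adjusted p from 0.0705 to 0.157).

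LOC_Os01g19750 was at -4.03 and -4.33 in Nipponbare at 0 h and at -4.89 and -4.93 at 8 h. In Pokkali it was dark at 0 h, at -7.98 and -8.28, and bright at 8 h, at -4.30 and -4.70. The Pokkali 0 h arrays thus stood alone, far under the other 6. The change was -0.73 ± 0.21 in Nipponbare (limma adjusted p = 0.0453) and a rise of at least 2.62-fold in Pokkali (limma adjusted p = 0.00112), and the measured difference of the changes was 4.37 ± 0.29 (limma adjusted p = 0.0167). With the dark arrays at their floor that difference was 2.12 log2 units. At 0 h the locus was at least 3.27-fold lower in Pokkali (limma adjusted p = 8.19e-05). The 0 h line difference and the Pokkali rise passed under all 19 alternatives, but were as small as -0.54 and 0.63 log2 units. Neither "at least" fold is thus a lower limit under every alternative.

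With normexp background correction the difference at LOC_Os01g19750 was 0.81 and did not pass (limma adjusted p = 0.143), and with the block within each time it did not pass either (limma adjusted p = 0.0566). The test passed under 10 of 18 alternatives and was lost without Nipponbare 8 h replicate 1 (limma adjusted p = 0.0677) or replicate 2 (0.0607) and without Pokkali 8 h replicate 1 (0.0918) or replicate 2 (0.13). The fall in Nipponbare passed under 6 of 19 alternatives and was lost whichever of the 8 arrays was left out (limma adjusted p from 0.0501 to 0.182).

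Along the interval, loci that passed were found in each stretch of 500 locus numbers. Between the lines at 0 h, the stretch from 22000 to 22499 held 9 called loci among 30 tested, 3 higher and 6 lower, and the stretch from 21500 to 21999 held 1 among 38. At 8 h the same stretches held 8 and 7. Over the interval 15.5% of tested loci were called at 0 h and 20.9% at 8 h, and over all loci 16.8% and 22%. These stretches were compared after their values were seen and were not tested.

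Neighbours seldom passed together. Of 296 pairs of neighbouring tested loci, 3 (1.01%) passed in the same direction between the lines at both times, against 1.24% of neighbouring pairs over the array. For salt in both lines, 3 pairs (1.01%) did so, against 2.06% over the array. The 6 pairs, named after their values were seen, hold no run longer than 2 loci between the lines.

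For the lines the pairs were LOC_Os01g18340 with LOC_Os01g18350, both higher in Pokkali, LOC_Os01g19260 with LOC_Os01g19270, both lower, and LOC_Os01g22080 with LOC_Os01g22090, both lower. LOC_Os01g18340 was 2.15-fold higher at 0 h (limma adjusted p = 0.00383) and 1.8-fold at 8 h (0.00975), and the 8 h call was lost without Nipponbare 8 h replicate 1 (0.0666) or replicate 2 (0.055) or Pokkali 8 h replicate 1 (0.0587). Its neighbour LOC_Os01g18350 was 1.66-fold and 1.67-fold higher (limma adjusted p = 0.034 and 0.027). The call at LOC_Os01g18350 passed under 9 of 20 alternatives at 0 h and 13 of 20 at 8 h, and leaving out any one Nipponbare array or either Pokkali 0 h array ended it at 0 h (limma adjusted p from 0.059 to 0.124). At 8 h it ended without Nipponbare 8 h replicate 1 (limma adjusted p = 0.0713) or replicate 2 (0.148) or Pokkali 8 h replicate 2 (0.134). LOC_Os01g19260 was 4.08-fold lower in Pokkali at 0 h (limma adjusted p = 0.00356) and 5.92-fold lower at 8 h (0.00122), with no overlap of the lines; its 0 h call ended when replicate 1 of both lines at 0 h was left out (limma adjusted p = 0.05002) or replicate 2 of both (0.0626).

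For salt the pairs were LOC_Os01g21020 with LOC_Os01g21034, which fell in both lines, and LOC_Os01g21144 with LOC_Os01g21160 and LOC_Os01g21310 with LOC_Os01g21320, which rose in both. LOC_Os01g21020 changed by -2.77 ± 0.29 in Nipponbare and -2.01 ± 0.29 in Pokkali (limma adjusted p = 0.00248 and 0.00588). LOC_Os01g21034 changed by -2.27 ± 0.42 and -2.03 ± 0.42 (limma adjusted p = 0.0119 and 0.0168). LOC_Os01g21160 rose by 1.90 ± 0.23 and 1.60 ± 0.23 (limma adjusted p = 0.00356 and 0.00584).

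The last of these pairs was LOC_Os01g21310, with changes of 1.17 ± 0.20 and 1.58 ± 0.20 (limma adjusted p = 0.00944 and 0.00412), and LOC_Os01g21320, with 1.55 ± 0.32 and 1.49 ± 0.32 (limma adjusted p = 0.0175 and 0.0192). In Nipponbare the calls of LOC_Os01g21310 and LOC_Os01g21320 were both lost without 8 h replicate 1 (limma adjusted p = 0.0507 and 0.0662) or 8 h replicate 2 (0.0599 and 0.0971), and that of LOC_Os01g21320 also without 0 h replicate 2 (0.0863). In Pokkali the call of LOC_Os01g21320 was lost without 8 h replicate 1 (limma adjusted p = 0.079) or replicate 2 (0.0911). For LOC_Os01g21034 the Nipponbare call was lost without 0 h replicate 2 (limma adjusted p = 0.0542) or 8 h replicate 2 (0.0772), and the Pokkali call without 0 h replicate 2 (0.0765) or 8 h replicate 2 (0.0985).

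The 350 loci were read by 359 probes, and 9 loci had probes for 2 transcript models. At 7 of the 9 the probes of a locus gave line differences and salt changes within 0.28 log2 units of each other. At LOC_Os01g22480, chosen for its disagreement, one probe gave a line difference of 0.87 at 0 h and 0.56 at 8 h and the other 2.86 and 2.12. Their mean passed at 0 h (1.87 ± 0.35, limma adjusted p = 0.0144) and at 8 h (1.34 ± 0.35, limma adjusted p = 0.0389). Leaving out Nipponbare 0 h replicate 1 or replicate 2 ended the call of LOC_Os01g22480 at 0 h (limma adjusted p = 0.0576 and 0.0624), and the 8 h call was lost without any one Nipponbare array or without Pokkali 8 h replicate 2 (limma adjusted p from 0.0588 to 0.184). The 8 h call also ended with the replicate number as a block (limma adjusted p = 0.0563), with no scaling (0.0577) and with no filter on dim probes (0.05005). The 0 h call of LOC_Os01g22480 ended on the 0 h arrays alone (limma adjusted p = 0.0572) and with both replicate 1 arrays of 0 h left out (0.0968). The probes of LOC_Os01g21850 gave salt changes of -0.36 and -1.37 in Nipponbare. Both agreed in direction while differing in size.

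At the ends of the interval the loci differed little. The first locus inside, LOC_Os01g18010, changed by 0.56 with salt in Nipponbare and 0.26 in Pokkali, and its line differences were 0.53 at 0 h and 0.23 at 8 h. The last one inside, LOC_Os01g22500, changed by 0.12 and -0.15, with line differences of -0.20 and -0.47. Just outside, LOC_Os01g17990 was bright on 1 array and was not tested, and LOC_Os01g22510 changed by 0.13 and 0.31, with line differences of 0.39 and 0.57.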

How the data were processed

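RNA of whole seedlings was labelled with Cy3 and hybridised to a custom array, per the labels. The authors deposited scanner tables made with Feature Extraction 10.7.1.1, per the file headers, on a design built from IRGSP5. The values used are the deposited processed signal, an intensity that is background-subtracted within the array and not scaled between arrays. The deposited flags (well above background, outlier, control) are of another kind than a measurement, 0 or 1 for each spot. One 8 h Nipponbare sample is replicate 2 by its title and replicate 1 by its description, and the title was used.

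Control spots (1319 an array) and 1678 spots with outlier flags were left out. Within each array the 75th percentile of log2 intensity was set to 0, and spots of a probe, then probes of a locus, were averaged. The filter kept the 47560 of 55078 probes that a group's 2 arrays both showed well above background, for 45412 loci. No interval locus lacked a value or was saturated. The tests are those of limma 3.58.1 (R 4.3.3), with lmFit and eBayes on 1 model of the 4 groups (4 residual and 2.36 prior degrees of freedom). They are two-sided, with Benjamini-Hochberg adjustment over all loci tested and a threshold of 0.05. The SE given after ± is limma's, from 1 moderated spread per locus over the 4 groups. It is thus the same for every line difference and salt change of a locus, and is not the spread of the arrays compared. The fit was checked on simulated data. For groups of 2 arrays an exact permutation test cannot go below p = 0.333. The number of arrays limits the precision. A locus dark on every array of a group was raised there to the lowest value of any probe well above background on the same array, and the fold is then given as "at least". That floor belongs to the deposited signal, and a dark locus can lie above it. It is no lower limit under another background correction. The tests used the values before raising, so a p-value beside such a fold tests the measured difference. Cross-hybridisation between near-identical copies was not tested.

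The interval's loci and the rules were chosen with earlier results of these data known. The loci named are, per comparison, the 2 with the largest rise and the 2 with the largest fall among those that passed, were bright in both groups and did not overlap; per direction, the 2 with the largest bound among loci dark in one line, and the 2 with the smallest larger p over both times or both lines; and the loci at the ends. Others were named after their values were seen. The alternatives changed the scaling, background correction, filter, probe choice, samples, block and threshold. The files hold no mean signal, so normexp used the median signal. One locus of the range is not reported here.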

Additional observations from a re-analysis of the deposited data

Results flagged for a closer look

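The change with salt differed between the lines, by the test of that difference, at 2 loci of the interval; both calls depend on the setting. At LOC_Os01g21135 the Pokkali change less the Nipponbare change was -3.43 log2 units (limma adjusted p = 0.0284; 0.076 with the replicate number as a block within each time), with a rise in Nipponbare and a change in Pokkali that did not pass. At LOC_Os01g19750 it was measured at 4.37 log2 units (limma adjusted p = 0.0167; 0.0566 with that block). That locus was dark in Pokkali at 0 h, and with the dark arrays at their floor the difference was 2.12. With normexp background correction it was 0.81 and did not pass (limma adjusted p = 0.143).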

How the results depend on the processing

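For the named loci no alternative reversed a called direction; over 2831 values, 160 were no longer past the threshold, 29 newly passed it and 2642 kept their side. Leaving out 1 array gave, for higher and lower interval loci, 13 to 44 and 10 to 32 for salt in Nipponbare, 18 to 50 and 8 to 23 for salt in Pokkali, 11 to 20 and 22 to 24 between the lines at 0 h, and 11 to 35 and 18 to 31 at 8 h. For the difference of the salt changes it gave 0 to 1 each way. Without replicate 1 of both lines at 0 h that difference passed at 0 and 0 loci. Without replicate 2 of both it was 0 and 0, with 20 falls in Nipponbare, 18 falls in Pokkali and 11 loci higher in Pokkali at 0 h, where 18.8%, 20% and 10.9% of all loci were called in either direction. With the arrays of the groups compared alone, 23 loci fell in Nipponbare and 8 were higher in Pokkali at 0 h (20.4% and 9.15% of all loci called). With probes bright on all 8 arrays, which left 256 interval loci, 15 were lower at 0 h (14.3% of all loci called) and 0 had a higher Pokkali change (0.127%), as with normexp (0; 0.418%). At a measured 2-fold or more, 24 rose in Nipponbare and 17 fell in Pokkali (17.5% and 17.9%). Loci dark in Nipponbare and bright in Pokkali numbered 1 on 3 of 4 arrays, 1 on the 0 h arrays alone and 4 on the 8 h arrays alone (1.31%, 0.822% and 1.91% of all loci), and the reverse 7, 10 and 6 (2.33%, 2.81% and 1.74%). The causes of these moves were not tested. Dim signal limits the folds of loci near background.

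With the replicate number as a block, 82 interval loci passed for salt in Nipponbare (42 higher; 30.6% of all loci), 88 in Pokkali (53 higher; 31.7%), 53 between the lines at 0 h (26 higher; 18.7%), 68 at 8 h (37 higher; 24.9%) and 2 for the difference of the salt changes, 1 each way (0.0661%). The labels give the numbers no shared source, so what same-numbered samples share beyond the number is not known. The deviations of same-numbered samples correlated at 0.54 between the lines at 0 h and 0.22 at 8 h, over all loci, and at 0.06 to 0.11 otherwise. A block within each time, chosen after seeing the data, gave 67 rises in Nipponbare, 50 falls in Pokkali, 32 higher loci at 0 h, 53 higher at 8 h, and 0 and 0 for the difference of the changes, with 39.5%, 40.6%, 24.3%, 32.6% and 0.0022% of all loci called.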
